A study of Homo sapiens with 12 samples.

Results

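The genes described here encode the machinery that removes introns and its regulators: SR proteins, hnRNPs, CLK kinases, snRNP proteins, PRPF and RBM proteins, and tissue-restricted splicing regulators. They were chosen by symbol from the probe annotation, without antisense genes and pseudogenes, and each is represented by its transcript cluster (the probes assigned to 1 transcribed locus) with the highest mean signal. Of 14884 genes with a symbol, 118 met this rule, all of them protein-coding. The cells were SK-N-BE(2), an established MYCN-amplified line from neuroblastoma, and had received vehicle, 1 µM JQ1, 10 nM panobinostat, or both for 6 h. All groups come from this 1 line, grown with fetal calf serum. Each of the 4 groups had 3 Affymetrix Human Gene 2.0 ST arrays. JQ1 displaces BET bromodomain proteins from acetylated histones, and panobinostat inhibits histone deacetylases. All 13 measured adrenergic neuroblastoma markers, such as TH, DBH and PHOX2A, lay above the median gene in every group, and the 2 measured blood markers, CD14 and LYZ, lay below it. Summed over the 13 markers, log2 signals were 141.5 to 141.7 with vehicle, 139.4 to 139.7 with JQ1, 135.1 to 135.8 with panobinostat and 131.4 to 131.7 with both, and the part of this marker loss in the results below was not tested. Of 6 measured mesenchymal genes 4 also lay above the median gene, and the list of 6 summed to 53.4 to 54.3 with vehicle and 51.1 to 52.2 with both.

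An intron is recognised by U1 snRNP at its 5′ splice site and by U2AF and U2 snRNP at its 3′ end, after which the U4/U6.U5 particle joins and the spliceosome is activated. SR proteins bind exons and generally favour their inclusion, hnRNPs often act against them, and CLK kinases phosphorylate SR proteins. Many SR protein and hnRNP genes limit their own mRNA through exons that carry a stop codon and send the transcript to decay. In neurons and neuroblasts, PTBP2, NOVA, SRRM4 and related proteins set tissue-specific exon choice. Arrays of this kind were read here as 1 value per gene, so splice isoforms were not measured.

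Values are log2 signals. Differences are log2 ± SE from limma, fitted over all 12 arrays, and n = 3 arrays per group throughout. A gene was called where its Benjamini-Hochberg adjusted p over 14884 genes was under 0.05. The labels do not state whether the arrays of a group come from separate cultures, and p-values then cover only the variation among these 12 arrays, part or all of which may be technical. Within groups, arrays correlated at 0.995 to 0.998 over the 118 genes, and between groups at 0.962 to 0.992. The signal of a gene cannot be set against that of another gene, because probes differ in affinity.

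Promoter windows are shown first for 6 genes on which the results turn and for which RefSeq gives 1 start site. RBM11 and SNRNP48 rose most, PTBP2 was among those that fell most, and SRSF5, SRSF6 and SRRM2 fell with panobinostat and were higher when JQ1 was added. Each window is 300 bases (250 before the start and 50 from it), on the plus strand of GRCh38.p14. Capitals mark matches, on either strand, to the E-box CACGTG, the CCAAT box (those 5 letters), the GC box GGGCGG, the ETS core CCGGAAG or the TATA box TATAAA. The positions are chr21:14215907-14216206 for RBM11, chr6:7589948-7590247 for SNRNP48, chr1:96722388-96722687 for PTBP2, chr14:69766892-69767191 for SRSF5, chr20:43457646-43457945 for SRSF6 and chr16:2752388-2752687 for SRRM2.
RBM11: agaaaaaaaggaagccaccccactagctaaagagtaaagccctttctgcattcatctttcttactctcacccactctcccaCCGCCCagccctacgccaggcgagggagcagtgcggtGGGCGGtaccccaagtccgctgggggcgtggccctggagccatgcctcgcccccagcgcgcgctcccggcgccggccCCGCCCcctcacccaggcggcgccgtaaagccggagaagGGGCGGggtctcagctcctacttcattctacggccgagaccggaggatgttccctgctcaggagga
SNRNP48: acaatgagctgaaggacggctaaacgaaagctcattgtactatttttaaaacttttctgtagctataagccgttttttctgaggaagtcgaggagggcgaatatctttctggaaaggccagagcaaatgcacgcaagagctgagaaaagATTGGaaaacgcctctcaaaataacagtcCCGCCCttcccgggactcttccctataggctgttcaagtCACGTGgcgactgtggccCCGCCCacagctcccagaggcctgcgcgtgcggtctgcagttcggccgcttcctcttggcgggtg
PTBP2: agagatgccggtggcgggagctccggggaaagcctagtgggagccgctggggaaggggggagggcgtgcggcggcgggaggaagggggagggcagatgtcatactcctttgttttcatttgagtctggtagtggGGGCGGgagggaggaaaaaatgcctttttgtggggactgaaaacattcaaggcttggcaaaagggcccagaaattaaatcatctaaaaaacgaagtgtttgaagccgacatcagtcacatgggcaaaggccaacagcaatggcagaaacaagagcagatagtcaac
SRSF5: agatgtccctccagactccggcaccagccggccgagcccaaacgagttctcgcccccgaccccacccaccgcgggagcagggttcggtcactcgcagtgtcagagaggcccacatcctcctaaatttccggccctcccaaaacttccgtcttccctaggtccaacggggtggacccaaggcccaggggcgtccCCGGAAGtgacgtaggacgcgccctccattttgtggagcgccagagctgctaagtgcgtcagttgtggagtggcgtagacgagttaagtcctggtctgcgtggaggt
SRSF6: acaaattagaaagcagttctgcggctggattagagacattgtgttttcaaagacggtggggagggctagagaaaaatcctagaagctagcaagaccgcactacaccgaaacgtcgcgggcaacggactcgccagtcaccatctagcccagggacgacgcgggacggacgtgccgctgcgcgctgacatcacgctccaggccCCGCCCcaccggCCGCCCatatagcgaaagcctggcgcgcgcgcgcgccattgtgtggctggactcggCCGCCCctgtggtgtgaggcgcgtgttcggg
SRRM2: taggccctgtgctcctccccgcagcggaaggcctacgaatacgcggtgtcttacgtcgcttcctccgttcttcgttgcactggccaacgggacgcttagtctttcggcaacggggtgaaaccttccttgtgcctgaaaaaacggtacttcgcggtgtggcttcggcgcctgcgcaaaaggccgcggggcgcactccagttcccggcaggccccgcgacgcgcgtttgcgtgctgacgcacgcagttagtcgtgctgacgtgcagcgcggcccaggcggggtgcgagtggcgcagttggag

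The RBM11 window holds 4 GC boxes and 23 CpG dinucleotides. That of SNRNP48 holds 1 E-box, the motif bound by MYC family proteins, 1 CCAAT box and 2 GC boxes. The PTBP2 window has 1 GC box and 11 CpG, fewer than the other windows shown. SRSF5 has 1 ETS core, SRSF6 has 3 GC boxes and 33 CpG, and SRRM2 has 38 CpG and none of the 5 motifs. No motif of the 5 was found in all 3 windows of SRSF5, SRSF6 and SRRM2, which says nothing about any factor. RefSeq windows were found for 106 of the 118 genes, 144 windows in all, and their median CpG count was 26, against 14 over all 35116 windows. Those 35116 windows belong to 27305 genes and were not restricted by gene type or signal. They are thus not a matched background for the shares below, and the differences were not tested. A GC box stood in 57.6% of the 144 windows and in 45% of all windows. For the CCAAT box the shares were 43.1% and 34.6%, for the ETS core 18.8% and 10.3%, for the E-box 9.03% and 7.26%, and for the TATA box 7.64% and 11.5%. In the 57 windows of genes called lower with panobinostat, 63.2% held a GC box, 43.9% a CCAAT box, 17.5% an ETS core, 10.5% an E-box and 7.02% a TATA box.

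Panobinostat lowered many splicing genes and raised few. Of the 118 genes, 44 were lower than vehicle and 8 were higher, 52 in all. Over all genes tested, 14.8% were called lower, 14.5% higher and 29.3% in either direction. The 44 are 37.3% of the splicing genes, and the 8 are 6.78%. Among protein-coding genes that were not dim (mean signal at or above the 40th percentile of all genes), 42 of 104 splicing genes were lower, 40.4%, against 23.4% of all such genes, and 6 were higher, 5.77% against 20.1%. The median difference of the 118 genes was -0.135, and that of all genes was 0.031. Arrays of panobinostat and vehicle did not overlap for 68 of the 118, against 39.8% of all genes.

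JQ1 moved fewer of these genes, and in both directions. With JQ1, 14 of the 118 were higher and 13 lower, 27 in all. Over all genes, 8.18% were higher, 9.47% lower and 17.6% in either direction. The median was -0.001, and for all genes it was 0.011. The share called with JQ1 was 22.9% of the splicing genes. Among protein-coding genes that were not dim, 11.5% of the splicing genes were higher and 11.5% lower, below the 12.8% and 14% of all such genes. Centring the arrays on their medians reduced the count of 27 to 16. Leaving out 1 array gave 15 without JQ1 replicate 2, 16 without JQ1 replicate 1, and 17 without vehicle replicate 2 or vehicle replicate 3, and as many as 27 without other arrays. With both compounds, 46 were lower and 13 higher, 59 in all, where 19.5%, 18.2% and 37.7% of all genes were called. The median difference was -0.126 against 0.025 for all genes. Among protein-coding genes that were not dim, 42.3% of the splicing genes were lower and 9.62% higher, against 30% and 26.2% of all such genes. At least 2-fold lower were 5 genes (SRSF8, MBNL3, RBM41, PTBP2 and RBM20), or 4.24% against 3.12% of all genes, and at least 2-fold higher were RBM11 and SNRNP48, 1.69% against 1.99%. RBM11 was dim and is counted here by its log2 difference only, since its fold cannot be read. None of the 3 comparisons with vehicle called 44 of the 118, and the share of all genes called in none of them was not counted. These 3 comparisons share the vehicle arrays.

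**Figure D1:**
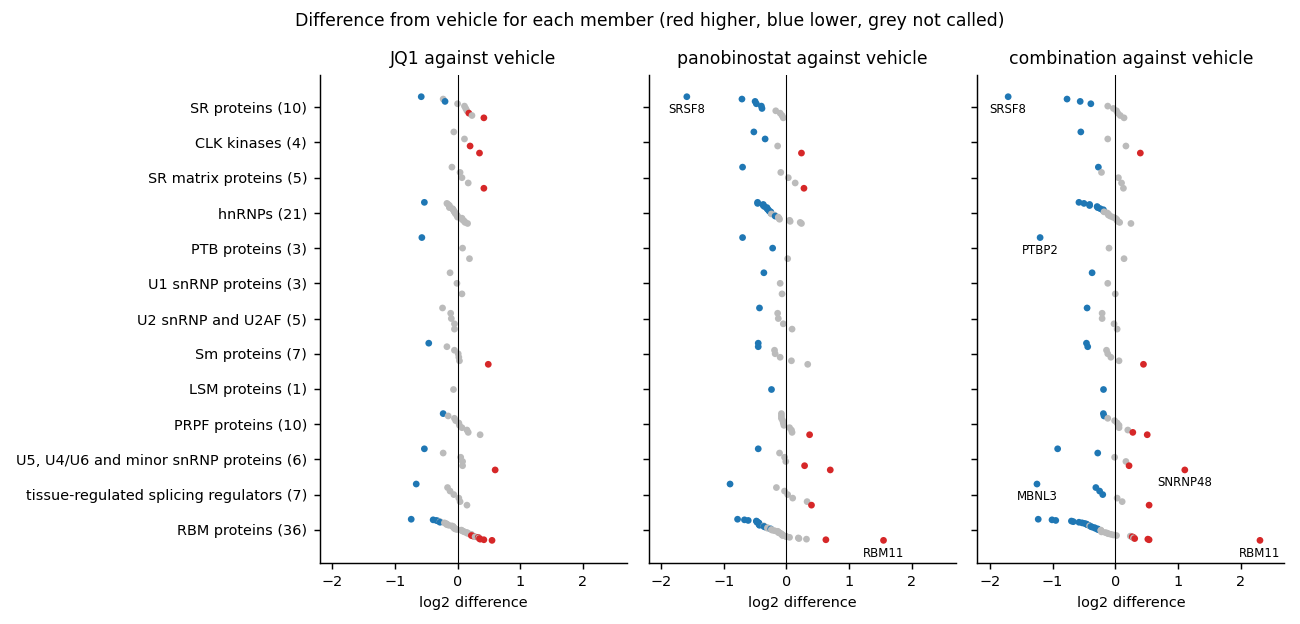
Log2 difference from vehicle (x axis) of each of the 118 genes, by role (y axis, number of genes in parentheses), for JQ1, panobinostat and the combination. Red and blue points are genes called higher and lower and grey points are not called; most coloured points of the panobinostat and combination panels lie left of 0, with 44 and 46 genes lower.

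The compounds were also compared directly. Vehicle arrays do not enter these differences, but in the shared fit over all 12 arrays they enter the SE and the calls. Panobinostat arrays were lower than JQ1 arrays for 42 genes and higher for 5, 47 in all, where 11.6% of all genes were lower, 11.6% higher and 23.3% either. With only the panobinostat and JQ1 arrays fitted, 37 were called, 34 lower and 3 higher. Of the splicing genes that were protein-coding and not dim, 38.5% were lower and 3.85% higher, against 18.7% and 15.6% of all such genes. SRSF6 (-0.90 ± 0.06), SRSF8 (-1.01 ± 0.09) and SRRM2 (-0.86 ± 0.06) had the largest differences downward. RBM11 (1.27 ± 0.13), MBNL2 (0.56 ± 0.07) and HNRNPDL (0.34 ± 0.08) had the largest upward. Adding panobinostat to JQ1 lowered 44 genes and raised 5, 49 in all, against 13.9%, 11.7% and 25.6% of all genes. Without dim and non-coding genes the shares were 39.4% lower and 3.85% higher, against 22.1% and 16.2% of all such genes. Adding JQ1 to panobinostat raised 14 and lowered 9, 23 in all, against 6.13%, 8.55% and 14.7%. Among protein-coding genes that were not dim, the shares were 11.5% higher and 8.65% lower, against 9.72% and 13.1% of all such genes. That count of 23 is less firm: it was 12 with centred arrays and 15 when only these 2 groups were fitted. Without panobinostat replicate 1 or combination replicate 2 it was 13, with 6 higher and 7 lower. It was 13 without panobinostat replicate 3 (7 higher and 6 lower) and 15 without combination replicate 3 (7 higher and 8 lower). Higher genes outnumbered lower ones in 1 of these 4 settings. They also did without combination replicate 1 (11 higher and 6 lower) and without panobinostat replicate 2 (14 higher and 6 lower). Centred arrays gave 7 higher and 5 lower, and the fit of only these 2 groups gave 8 and 7. With the replicate number as a block, 6 were higher and 7 lower.

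**Figure D2:**
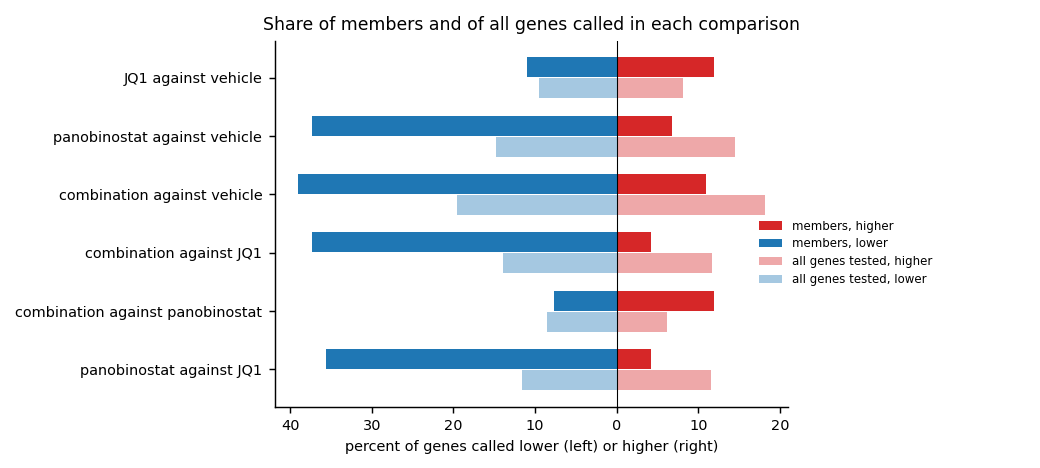
Percent of the 118 splicing genes (dark bars) and of all 14884 genes (pale bars) called lower (left) or higher (right) in 6 comparisons. In the 4 comparisons in which the first-named group received panobinostat and the other did not, 35.6% to 39% of the splicing genes were lower.

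Of the 10 measured SR protein genes, 6 were lower and 0 higher with panobinostat (median -0.40, range -1.59 to -0.05), where 14.8% and 14.5% of all genes were. With JQ1, 2 rose and 2 fell, and with both compounds 4 fell and 0 rose (median -0.07). Of all genes, 8.18% rose and 9.47% fell with JQ1, and 18.2% rose and 19.5% fell with both. Shares of all genes, here and for the groups below, include dim and non-coding genes. Among protein-coding genes that were not dim, 23.4% were lower with panobinostat and 30% with both. SRSF8, an intronless relative of SRSF2, changed most. Its signals were 10.24, 10.08 and 10.10 with vehicle, 9.61, 9.44 and 9.62 with JQ1, 8.58, 8.47 and 8.59 with panobinostat, and 8.26, 8.44 and 8.58 with both. JQ1 arrays thus lay below vehicle and above all arrays with panobinostat, while panobinostat and the combination overlapped. SRSF8 was lower with JQ1 (-0.58 ± 0.09, limma adjusted p = 0.00102), 3.02-fold lower with panobinostat (-1.59 ± 0.09, adjusted p = 6.07e-07) and 3.28-fold lower with both (-1.71 ± 0.09, adjusted p = 8.33e-08). JQ1 added to panobinostat left it at -0.12, with a 95% interval from -0.32 to 0.08. The test of whether the effect of JQ1 differed with and without panobinostat called none of the 10 SR protein genes, SRSF8 included. Its values ran from -0.19 to 0.46.

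SRSF4, an SR protein with a long RS domain, was at 9.56, 9.39 and 9.53 with vehicle and 8.80, 8.64 and 8.90 with panobinostat. The combination arrays, at 8.56, 8.70 and 8.91, overlapped those of panobinostat, and both groups lay below vehicle (-0.71 ± 0.10 and -0.77 ± 0.10). JQ1 alone gave 0.13 ± 0.10, which did not pass (limma adjusted p = 0.47). SRSF1, the founding member of the family, fell by 0.39 ± 0.06 with panobinostat and by 0.39 ± 0.06 with both, and by 0.20 ± 0.06 with JQ1 (limma adjusted p = 0.0416). That JQ1 call was lost in 12 of 18 alternatives, such as centring the arrays. SRSF12, which opposes other SR proteins, fell with the combination alone (-0.56 ± 0.11), at -0.23 with JQ1 and -0.17 with panobinostat, neither of which passed. SRSF2, which binds exonic enhancers, rose with JQ1 (0.18 ± 0.06, limma adjusted p = 0.043), a call lost in 15 of 18 alternatives. SRSF3 and SRSF11 passed in none of the comparisons with vehicle, with values between -0.10 and 0.15.

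SRSF5, SRSF6 and SRSF7 behaved otherwise with both compounds: they were lower with panobinostat alone and near vehicle with the combination. SRSF6 signals were 11.20, 11.13 and 11.10 with vehicle, 11.58, 11.51 and 11.59 with JQ1, 10.62, 10.66 and 10.71 with panobinostat, and 11.19, 11.18 and 11.19 with both. JQ1 arrays were the highest and panobinostat arrays the lowest, and the combination fell among the vehicle arrays. The difference from vehicle was 0.42 ± 0.06 with JQ1 (limma adjusted p = 0.000555). Panobinostat gave -0.48 ± 0.06 (adjusted p = 0.000112), and the combination 0.04 (95% interval -0.09 to 0.17). SRSF5 was at 8.83, 8.67 and 8.63 with vehicle, 8.97, 8.97 and 8.90 with JQ1, 8.02, 8.37 and 8.23 with panobinostat, and 8.66, 8.80 and 8.72 with both. Panobinostat lowered it by 0.50 ± 0.09, and JQ1 added to panobinostat raised it by 0.52 ± 0.09 (limma adjusted p = 0.00296). For SRSF7 the same differences were -0.40 ± 0.08 and 0.28 ± 0.08, and the second was lost in 8 of 18 alternatives.

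Among all 118 genes, 8 were lower with panobinostat than with vehicle and higher with both compounds than with panobinostat, against 1.2% of all genes. Both comparisons use the panobinostat arrays, so array noise there enters both, and the 2 counts are not independent. Beside SRSF5, SRSF6 and SRSF7 these were SRRM2, HNRNPA1, HNRNPA3, HNRNPAB and HNRNPH1. The 8 were picked for being low with panobinostat and higher with both, so some nearness of the combination to vehicle is built in. How often all genes with this pattern lay near vehicle with both compounds was not counted. With the combination, 7 of the 8 were not called different from vehicle. SRRM2, a large SR-rich scaffold of nuclear speckles, was the exception. It read 11.24, 11.26 and 11.17 with vehicle, 11.39 on each JQ1 array, 10.53, 10.54 and 10.51 with panobinostat, and 10.94, 11.01 and 10.91 with both, so that no pair of groups overlapped. It fell by 0.70 ± 0.06 with panobinostat (limma adjusted p = 7.16e-06) and by 0.27 ± 0.06 with both, and its second, dimmer cluster fell too (-0.82 ± 0.13 and -0.45 ± 0.13). JQ1 added to panobinostat raised SRRM2 by 0.43 ± 0.06. The second cluster was at 0.37 ± 0.13 there and did not pass (limma adjusted p = 0.0911 over all named clusters). HNRNPAB, an hnRNP of the A/B class, read 12.18, 12.23 and 12.19 with vehicle, 11.85, 11.83 and 11.81 with panobinostat, and 12.18, 12.16 and 12.14 with both. JQ1 added to panobinostat raised it by 0.33 ± 0.06 (limma adjusted p = 0.00253). HNRNPA1 (0.32 ± 0.09), HNRNPH1 (0.35 ± 0.10) and HNRNPA3 (0.46 ± 0.13) rose likewise in that comparison. These 3 calls were lost in 10 of 18, 9 of 18 and 7 of 17 alternatives, and HNRNPA3 was dim. The interaction, which tests whether the effect of JQ1 differed with and without panobinostat, was called for none of the 8. Its values were 0.10 for SRSF6 (95% interval -0.08 to 0.29), 0.29 for SRSF5, 0.17 for SRSF7, 0.26 for SRRM2, 0.22 for HNRNPAB, 0.16 for HNRNPA1, 0.28 for HNRNPH1 and 0.59 for HNRNPA3.

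**Figure D3:**
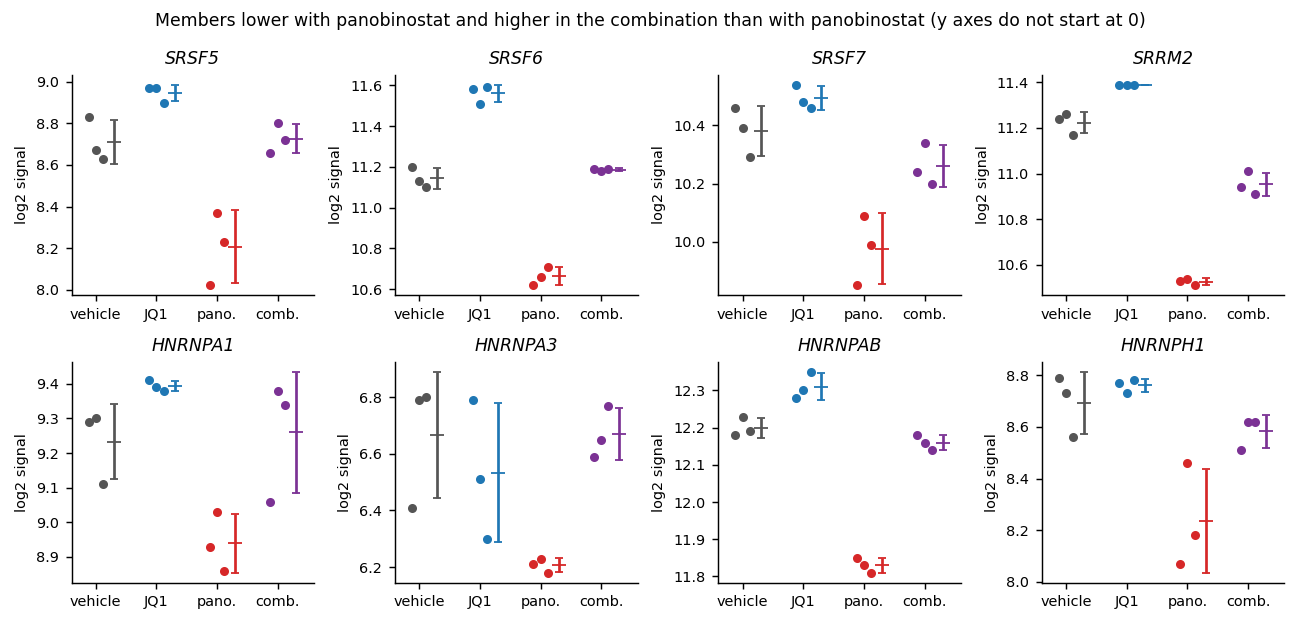
Log2 signal (y axis, not starting at 0) of 8 genes on the 3 arrays of each group (points), with group mean and SD beside them (bars). In each panel the panobinostat arrays lie below all vehicle and all combination arrays, as for SRRM2 at 10.51 to 10.54 against 10.91 to 11.01 with both.

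The CLK kinases, which phosphorylate SR proteins, did not move as 1 group. CLK4 read 8.33, 7.97 and 8.13 with vehicle, 7.54, 7.70 and 7.65 with panobinostat and 7.41, 7.62 and 7.74 with both. It fell by 0.52 ± 0.10 with panobinostat (limma adjusted p = 0.00253) and by 0.55 ± 0.10 with both, and was at -0.06 with JQ1. CLK1 rose with JQ1 (0.35 ± 0.11, limma adjusted p = 0.0463) and fell with panobinostat (-0.34 ± 0.11, adjusted p = 0.0358). The first of these calls was lost in 13 of 18 alternatives and the second in 5. Panobinostat arrays were lower than JQ1 arrays for CLK1 by 0.70 ± 0.11 (adjusted p = 0.000882). CLK3 was higher in every treated group, by 0.20 ± 0.06, 0.24 ± 0.06 and 0.40 ± 0.06 with JQ1, panobinostat and both, although its JQ1 call was lost in 16 of 18 alternatives. CLK2 passed in no comparison with vehicle (0.11, -0.14 and 0.17). SRSF6, CLK1 and RBM10 were the 3 genes called higher with JQ1 and lower with panobinostat, where 0.49% of all genes were.

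Of the 5 SR matrix proteins, SRRM4 was the only one of the 118 genes with a called interaction, where 0.759% of all genes were called. SRRM4 promotes the inclusion of neural microexons. Its signals were 8.75, 8.87 and 8.74 with vehicle, 9.18, 9.29 and 9.15 with JQ1, 9.08, 9.06 and 9.05 with panobinostat, and 9.01, 8.97 and 8.77 with both. Each compound alone gave arrays above vehicle, while the combination overlapped vehicle. It rose by 0.42 ± 0.08 with JQ1 and by 0.28 ± 0.08 with panobinostat, and was at 0.13 with both (limma adjusted p = 0.227). The interaction was -0.57 ± 0.11 (limma adjusted p = 0.0407), and 14 of 17 alternatives lost this call, with values from -0.62 to -0.50. SRRM1 and SRRM3 lay between 0.03 and 0.14 in the 3 comparisons with vehicle and did not pass.

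Of the 21 hnRNP genes, 12 fell and 0 rose with panobinostat (median -0.25, range -0.46 to 0.24), where 14.8% of all genes fell and 14.5% rose. With both compounds 9 fell and 0 rose (median -0.13), and with JQ1 alone 1 fell and 0 rose (median -0.04), against 19.5% and 18.2%, and 9.47% and 8.18%, of all genes. The panobinostat calls of HNRNPF, HNRNPA1, HNRNPA2B1, HNRNPLL, HNRNPL and HNRNPA3 were lost in 9, 5, 5, 4, 3 and 2 alternatives. HNRNPUL1, an HNRNPU-like protein, read 11.59, 11.60 and 11.54 with vehicle, 11.46, 11.47 and 11.40 with JQ1, 11.18, 11.26 and 11.24 with panobinostat, and 10.99, 11.08 and 10.93 with both. No groups overlapped, and the combination was the lowest, at -0.58 ± 0.06 from vehicle (limma adjusted p = 1.66e-05). HNRNPR fell by 0.37 with panobinostat and 0.50 with both, HNRNPH3 by 0.31 and 0.41, HNRNPLL by 0.31 and 0.41, and HNRNPU, a chromatin-associated scaffold, by 0.28 and 0.29. HNRNPDL was the 1 hnRNP lower with JQ1. Its signals were 10.68, 10.86 and 10.68 with vehicle, 10.33, 10.18 and 10.12 with JQ1, 10.45, 10.67 and 10.53 with panobinostat, and 10.57, 10.51 and 10.61 with both. The JQ1 arrays lay below all other arrays, at -0.53 ± 0.08 from vehicle (limma adjusted p = 0.00111). With panobinostat present, JQ1 gave 0.01 for HNRNPDL (95% interval -0.17 to 0.20), and the interaction of 0.54 ± 0.12 did not pass (limma adjusted p = 0.0636). HNRNPK (-0.07, -0.11 and -0.08) and HNRNPC (0.09, 0.22 and 0.25) passed in no comparison with vehicle. Genes with close copies in the genome, such as HNRNPA1 and HNRNPA1L2, HNRNPC and HNRNPCL1, or RBM4 and RBM4B, may share probe signal.

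PTBP2, the neuronal paralog of the polypyrimidine tract binding protein PTBP1, fell with each compound and further with both. Its signals were 9.56, 9.36 and 9.40 with vehicle, 8.90, 8.81 and 8.90 with JQ1, 8.68, 8.87 and 8.67 with panobinostat, and 8.12, 8.34 and 8.27 with both. The single-compound groups overlapped each other, lay below vehicle and lay above the combination. PTBP2 was 1.48-fold lower with JQ1 (-0.57 ± 0.08, limma adjusted p = 0.000793), 1.62-fold lower with panobinostat (-0.70 ± 0.08, adjusted p = 9.82e-05) and 2.29-fold lower with both (-1.20 ± 0.08, adjusted p = 6.7e-07). The interaction was 0.07, with a 95% interval from -0.19 to 0.33. With panobinostat PTBP1 fell by 0.22, while its difference of -0.10 with both compounds did not pass, and PTBP3 passed in no comparison with vehicle (0.19, 0.02 and 0.14).

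The combination was lower than vehicle, than JQ1 and than panobinostat for 8 genes, where 4.58% of all genes were: HNRNPUL1, MBNL1, MBNL3, PTBP2, RBM20, RBM41, SNRNP35 and SRSF12. It was higher than all 3 for RBM11 and SNRNP48, where 2.43% of all genes were. These comparisons share the combination arrays. Against panobinostat, the calls of HNRNPUL1, SRSF12, SNRNP35, SNRNP48 and MBNL3 were lost in 9, 7, 5, 5 and 1 of 18 alternatives. Against JQ1, those of SRSF12 and SNRNP35 were lost in 11 and 5 of 18. For MBNL1, 3 of 19 alternatives lost the call against panobinostat and 1 of 19 that against JQ1.

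MBNL3, a member of the muscleblind family of tissue-specific splicing regulators, read 9.80, 9.62 and 9.87 with vehicle, 9.11, 9.07 and 9.11 with JQ1, 8.88, 8.82 and 8.87 with panobinostat, and 8.42, 8.50 and 8.62 with both. The 4 groups did not overlap. MBNL3 fell by 0.66 ± 0.08, 0.90 ± 0.08 and 1.25 ± 0.08 (limma adjusted p = 0.000161, 9.08e-06 and 2.7e-07). MBNL2 went the other way with panobinostat. It read 10.63, 10.75 and 10.70 with vehicle, 10.58, 10.51 and 10.51 with JQ1, 10.99, 11.19 and 11.10 with panobinostat, and 10.50, 10.50 and 10.48 with both. Panobinostat raised it by 0.40 ± 0.07, and JQ1 added to panobinostat lowered it by 0.60 ± 0.07 (limma adjusted p = 0.000224). The interaction for MBNL2, -0.43 ± 0.09, did not pass (limma adjusted p = 0.0626). MBNL1 was lower with the combination (-0.25 ± 0.06) and at 0.02 with each compound, while its dimmer cluster was at -0.38 ± 0.08 with panobinostat (adjusted p = 0.00327 over all named clusters). With the mean of the clusters MBNL1 passed as lower with panobinostat (-0.184, limma adjusted p = 0.048). NOVA2, a neuronal regulator, rose with the combination (0.54 ± 0.17, limma adjusted p = 0.0282), a call lost without vehicle replicate 1, combination replicate 1 or combination replicate 2. NOVA1 was dim and fell with the combination (-0.31), a call lost in 5 of 17 alternatives. The epithelial regulators ESRP1, which was dim, and ESRP2 did not pass in the comparisons with vehicle, with values from -0.12 to 0.11.

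**Figure D4:**
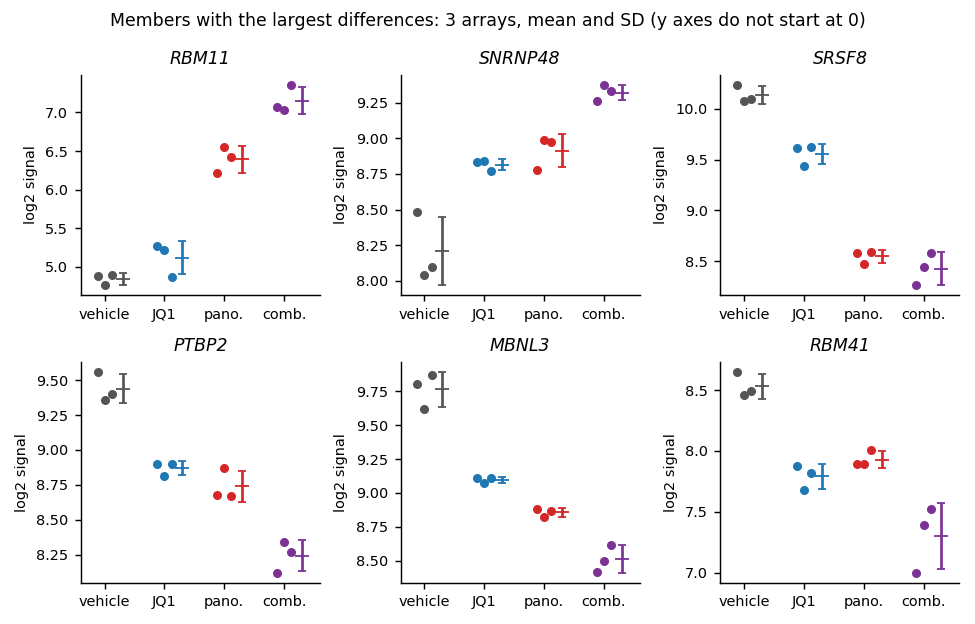
Log2 signal (y axis, not starting at 0) of 6 genes with large differences on the 3 arrays of each group (points), with group mean and SD beside them (bars). RBM11 and SNRNP48 are highest and PTBP2, MBNL3 and RBM41 lowest with the combination, and SRSF8 is low in both groups that received panobinostat, at 8.26 to 8.59.

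RBM11, a splicing regulator known from brain and testis, rose with panobinostat and with both compounds, by the largest log2 differences of the 118 genes. Its signals were 4.88, 4.76 and 4.89 with vehicle, 5.27, 5.22 and 4.87 with JQ1, 6.21, 6.55 and 6.42 with panobinostat, and 7.07, 7.03 and 7.36 with both. JQ1 arrays overlapped vehicle, and the other groups lay apart and above. RBM11 was higher with panobinostat (1.55 ± 0.13, limma adjusted p = 6.12e-06) and with both (2.31 ± 0.13, adjusted p = 1.1e-07), and JQ1 gave 0.28 (adjusted p = 0.172). JQ1 added to panobinostat raised it by 0.76 ± 0.13 (limma adjusted p = 0.00231), and the interaction was 0.48 (95% interval 0.08 to 0.88, adjusted p = 0.259). RBM11 is 1 of the 14 dim genes. Its vehicle mean of 4.84 lies below the dim threshold of 6.754, and it is unknown whether that is above background, so no fold is given.

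The 36 RBM genes share an RNA recognition motif and differ widely in what they do. With panobinostat 14 fell and 2 rose (median -0.24), with both compounds 17 fell and 6 rose (median -0.26), and with JQ1 5 fell and 7 rose (median 0.03). The shares of all genes lower and higher were 14.8% and 14.5% with panobinostat, 19.5% and 18.2% with both, and 9.47% and 8.18% with JQ1. The rises with both compounds and the falls with JQ1 are near those shares. RBM41 read 8.65, 8.46 and 8.49 with vehicle, 7.88, 7.68 and 7.82 with JQ1, 7.89, 7.89 and 8.01 with panobinostat, and at most 7.52 with both. The combination lay below all other arrays, at -1.23 ± 0.12 from vehicle (limma adjusted p = 7.14e-06). RBM41 was lower than vehicle by 0.74 ± 0.12 with JQ1 alone and by 0.61 ± 0.12 with panobinostat alone. RBM20, which controls titin splicing in heart muscle, read 8.40, 8.15 and 8.26 with vehicle and 7.16, 7.33 and 7.30 with both, and fell 2.01-fold (-1.01 ± 0.09). Its falls with JQ1 and panobinostat were 0.39 ± 0.09 and 0.43 ± 0.09.

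RBM10, a regulator of exon skipping, rose with JQ1 (0.25 ± 0.06) and fell with panobinostat (-0.44 ± 0.06) and with both (-0.42 ± 0.06). Its signals were 9.63, 9.58 and 9.67 with vehicle, 9.91, 9.83 and 9.89 with JQ1, 9.13, 9.16 and 9.27 with panobinostat, and 9.21, 9.17 and 9.23 with both. The last 2 groups overlapped and lay below the rest. RBM5, its relative, fell by 0.44 with panobinostat and 0.49 with both and was at 0.22 with JQ1 (limma adjusted p = 0.0602). RBM23 fell in all 3 comparisons (-0.31, -0.78 and -0.70), and RBM39, a U2AF-related factor, fell by 0.48 and 0.37 with panobinostat and both. RBM33, RBM22, a component of the activated spliceosome, and RBM15B fell with panobinostat by 0.47, 0.44 and 0.36. RBM38, a p53-induced regulator of mRNA stability, rose with JQ1 (0.55 ± 0.12) and with both (0.52 ± 0.12), and RBM8A, an exon junction protein, rose by 0.22 and 0.29. RBM44, which was dim, rose in all 3 comparisons (0.42, 0.63 and 0.54), and RBM43, also dim, fell in all 3 (-0.34, -0.67 and -0.95). The JQ1 call of RBM43 was lost in 13 of 17 alternatives, that of RBM8A in 8 of 18, that of RBM10 in 5 of 18 and that of RBM44 in 1 of 17.

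Core spliceosome proteins follow in the order of their particles. Among the 10 PRPF genes, 1 rose and 0 fell with panobinostat, and 2 rose and 2 fell with both compounds, where 14.5% and 14.8% of all genes rose and fell with panobinostat and 18.2% and 19.5% with both. The 2 falls were PRPF19 and PRPF3, whose calls were lost in 14 and 9 of 18 alternatives. PRPF18, a factor of the second catalytic step, rose by 0.37 with panobinostat, a call lost in 7 of 18 alternatives, and by 0.51 with both. PRPF8, the largest protein at the catalytic centre, was at -0.05, -0.06 and -0.01 in the 3 comparisons and did not pass. Of the 3 U1 proteins SNRPA fell (-0.36 ± 0.07 with panobinostat and -0.37 ± 0.07 with both), while SNRNP70 and SNRPC did not pass. In the U2 and U2AF group 1 of 5 fell: U2AF2, which binds the polypyrimidine tract, read 11.64, 11.76 and 11.76 with vehicle, 11.37, 11.20 and 11.31 with panobinostat and 11.26, 11.32 and 11.24 with both. U2AF2 fell by 0.43 ± 0.07 (limma adjusted p = 0.000621) and by 0.45 ± 0.07 with both, while its partner U2AF1 was at -0.13 and -0.02 and did not pass. Of 7 Sm proteins, SNRPD1 fell by 0.45 and 0.46 with panobinostat and both, and SNRPE fell in all 3 comparisons (-0.46, -0.45 and -0.44), as did its second cluster (-0.44, -0.50 and -0.56). SNRPG, which was dim, rose with JQ1 (0.49) and both (0.45), calls that were lost in 7 and 6 of 17 alternatives. The other 4 Sm genes did not pass, and the JQ1 call of SNRPE was lost in 4 of 19. LSM12, the 1 LSM gene measured, was taken by its symbol and is not assigned to a particle here. It fell by 0.24 with panobinostat and by 0.20 with both, calls lost in 2 and 5 of 18 alternatives.

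Proteins of the U11/U12 particle, which recognises the rare minor class of introns, went in opposite directions. SNRNP48 read 8.48, 8.04 and 8.10 with vehicle, 8.83, 8.84 and 8.77 with JQ1, 8.78, 8.99 and 8.97 with panobinostat, and 9.26, 9.37 and 9.33 with both. All treated arrays lay above vehicle, and the combination above the single compounds. SNRNP48 was 2.15-fold higher with both (1.11 ± 0.11, limma adjusted p = 7e-06), 1.52-fold with JQ1 (0.60 ± 0.11) and 1.63-fold with panobinostat (0.70 ± 0.11). SNRNP35 read 7.74, 7.45 and 7.50 with vehicle, 7.16, 7.02 and 6.93 with JQ1, 6.95, 7.16 and 7.25 with panobinostat, and 6.45, 6.65 and 6.82 with both. Its fall was largest with both (-0.92 ± 0.12, limma adjusted p = 5.99e-05). SNRNP35 was lower than vehicle by 0.53 ± 0.12 with JQ1 alone and by 0.45 ± 0.12 with panobinostat alone. SNRNP25 of the same particle passed in no comparison with vehicle (0.08, -0.01 and 0.17). SNRNP200, the helicase that unwinds U4/U6, did not pass either (0.08, -0.03 and -0.01). SNRNP27 rose with panobinostat (0.29) and both (0.22), but its dimmer cluster was at -0.15 and -0.03, and with the mean of the clusters both calls were lost.

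Other splicing genes, which the symbol rule did not take, were listed by complex: RNA helicases, further spliceosome proteins, exon junction and export factors, snRNP assembly, and further regulators. Of these 91 genes, 35 fell and 12 rose with panobinostat (median -0.17), 39 fell and 16 rose with both (median -0.17), and 11 fell and 6 rose with JQ1 (median -0.03). Over all genes, the shares lower and higher were 14.8% and 14.5%, 19.5% and 18.2%, and 9.47% and 8.18%, so that the JQ1 counts are near the background. Among protein-coding genes that were not dim, they were 23.4% and 20.1% with panobinostat and 30% and 26.2% with both. The 91 genes were not counted within that set. COIL, the scaffold of Cajal bodies, fell by 0.75 ± 0.10 with JQ1, 1.36 ± 0.10 with panobinostat and 1.62 ± 0.10 with both. PPIL1, a spliceosomal cyclophilin, fell by 0.83 ± 0.08, 0.71 ± 0.08 and 1.43 ± 0.08, and CWC22, which hands the exon junction helicase to the spliceosome, by 0.65 ± 0.10, 0.66 ± 0.10 and 1.13 ± 0.10. That helicase, EIF4A3, rose in all 3 comparisons (0.35, 0.22 and 0.76). SUGP1 rose with JQ1 (0.44) and both (0.67), and SLU7, a factor of the second catalytic step, rose with panobinostat (0.49) and both (0.56). Within the list of exon junction and export factors, panobinostat lowered 6 genes and raised 1 of the 10 measured (median -0.31), where 14.8% and 14.5% of all genes were called lower and higher.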

How the data were processed

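Arrays were Affymetrix Human Gene 2.0 ST, 12 in all. The deposited values were taken as log2 signals because they run from 1.391 to 14.097 without zeros, and the log base is not given per the labels. Per the submitters' processing notes, MAS5 and affy were used, without a version or role. How background was corrected, how arrays were normalized and which build was used is not given in the sources used here. The values carry no detection call, and precision is limited by having 3 arrays per group. Array medians lay between 6.119 and 6.292.

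A platform annotation named 16098 of 53617 clusters with 1 symbol each (0 with several), giving 14884 genes, 5 of the 118 with more than 1 cluster. The pattern covered SRSF, HNRNP, SF3A, SF3B, SNRP, SNRNP, PRPF, U2AF, LSM, RBM, RBFOX, CELF, NOVA, PTBP, ESRP, MBNL, SRRM and CLK symbols, 130 in all. Families with no named cluster here, such as SF3B, RBFOX and CELF, were not analysed here. 12 antisense genes and pseudogenes were left out, and the pseudogene ending (P and a number) was looked for behind the family name, since read over the whole symbol it would drop every SNRNP, PTBP and ESRP gene and leave 106. Differences were tested with limma 3.58.1 in R 4.3.3 (lmFit and eBayes, 8 residual and 3.457 prior degrees of freedom), two-sided, in 6 pairwise comparisons and the interaction. The fit was tested on simulated data. An exact permutation test of 3 against 3 cannot give a p under 0.1 and was not used. Genes and lists were chosen with earlier results of these data known. The text names the genes with the largest called differences, the largest in each role group and listed regulators, and any other called gene was added after its values were seen. 20 alternatives were tried.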

Additional observations from a re-analysis of the deposited data

Results flagged for a closer look

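For SRRM4 the effect of JQ1 differed with and without panobinostat by a test of that difference, the interaction term of the fit: -0.57 ± 0.11 (limma adjusted p = 0.0407). JQ1 gave 0.42 ± 0.08 without panobinostat and -0.15 with it, with n = 3 arrays per group. Of 17 alternatives, 14 lost the call.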

How the results depend on the processing

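The numbers of genes called with panobinostat and with both compounds were within 1.5 times the reported count under all alternatives, with 39 to 59 genes called for panobinostat and 47 to 65 for the combination. Leaving out 1 array gave 45 to 54 and 47 to 61, and the lower genes outnumbered the higher ones each time. Centring each array on its median moved the JQ1 count from 27 to 16 and the count of the combination against panobinostat from 23 to 12, which was 15 when only the compared groups were fitted. Leaving out 1 array gave 15 to 27 and 13 to 23 for these. The interaction count of 1 became 0 with centring, 2 with quantile normalization, 4 without dim genes and 7 with an intensity trend in eBayes, and was 0 to 1 with 1 array left out. The cause was not tested. Same-numbered arrays showed no general positive pairing: their deviations correlated at -0.693 to 0.236 (median -0.049), and those of other arrays at -0.415 to 0.486 (median 0.005). Arrays numbered 1 did show structure. Vehicle gave -0.693 with panobinostat and -0.648 with the combination, and JQ1 gave -0.479 and -0.509. Vehicle with JQ1 gave 0.201, and panobinostat with the combination 0.236. Pairs with other numbers showed structure too. Vehicle replicate 1 gave 0.486 with panobinostat replicate 3. Vehicle replicate 2 gave 0.47 with panobinostat replicate 1 and -0.415 with panobinostat replicate 3. The source of this structure was not tested. A block for the replicate number gives all groups the same shift, so it cannot take up deviations that are opposite between groups. With the replicate number as a block, the counts were 18 for JQ1, 47 for panobinostat, 54 for both, 37 for the combination against JQ1, 13 against panobinostat, 36 for panobinostat against JQ1 and 0 for the interaction. Of 264 called differences of named genes, 169 passed under all alternatives, 95 were lost under at least 1 and 0 changed sign, while 7 of 54 that were not called passed under at least 1. Signs changed only for differences that had not passed, and 1 of these passed with the other sign: MBNL1 with panobinostat was lower with the mean of its clusters (-0.184, limma adjusted p = 0.048). With arrays centred these were ESRP2 with both (-0.008), MBNL1 with panobinostat (-0.036), RBM42 with both (-0.016), SNRNP70 with both (-0.036), SRRM1 with panobinostat (-0.026), SRSF3 with JQ1 (0.006) and SRSF5 with both (-0.016). With quantile normalization they were NOVA1 with JQ1 (-0.017) and U2AF1 with both (0.013), and with the mean of a gene's clusters MBNL1 with JQ1 (-0.048) beside the one above. With 1 array left out, differences ranged across 0 for CLK4 with JQ1 (-0.149 to 0.027), ESRP1 with panobinostat (-0.064 to 0.202), ESRP2 with JQ1 (-0.134 to 0.014), ESRP2 with both (-0.046 to 0.103), ESRP2 with panobinostat (-0.101 to 0.048), HNRNPA3 with both (-0.128 to 0.065), MBNL1 with panobinostat (-0.001 to 0.047), NOVA1 with JQ1 (-0.023 to 0.095), NOVA2 with JQ1 (-0.017 to 0.238), RBM42 with both (-0.010 to 0.041), SNRNP200 with both (-0.042 to 0.025), SNRNP70 with both (-0.067 to 0.061), SRRM3 with JQ1 (-0.026 to 0.110), SRSF11 with both (-0.072 to 0.041), SRSF11 with panobinostat (-0.112 to 0.037), SRSF3 with JQ1 (-0.015 to 0.018) and SRSF5 with both (-0.018 to 0.079). The interaction uses all 4 groups, so fitting only the compared groups gave it no separate value. Without detection calls it is unknown which of the 14 dim genes lay above background, and 3 arrays per group limit what small differences can show.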
